A study of Mus musculus with 30 samples.

Results

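Spermatogonia are the mitotic germ cells of the testis, and they give rise to spermatocytes, which pass through meiosis, and then to haploid round spermatids. Primitive type A spermatogonia (PriSG-A) and type A spermatogonia (SG-A) are the mitotic stages compared here. Pachytene spermatocytes (pacSC) are in the long stage of meiotic prophase in which homologous chromosomes are paired, and round spermatids (rST) follow the meiotic divisions. Accessible DNA at promoters and enhancers is bound by transcription factors in place of nucleosomes, and broad stretches of it are often found where several factors bind next to one another.

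The regions described here were at least 1000 bp wide, were listed as open in both spermatogonial stages and overlapped no peak of pacSC or rST. They were thus chosen by measured values, the presence, absence and width of peaks. They were found by joining the 4 peak lists on chromosomes 1 to 19 into union regions wherever peaks overlapped by at least 1 bp, which gave 113894 regions. Of these, 3624 met the rule. They are called wide spermatogonial-only regions below, and together they covered 5.39 Mb. They made up 19.6% of the 18529 regions confined to both spermatogonial lists, and 44.9% of the length of those regions.

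Assay for transposase-accessible chromatin (ATAC-seq) had been applied to C57BL/6 mouse germ cells, with 3 libraries of PriSG-A from day 6 after birth, 3 of SG-A from day 8, 2 of pacSC from adults and 2 of rST from adults. No genetic change or treatment is labelled in any group, and the sources used here do not say whether animals were pooled. The authors gave 1 peak list per stage for all its libraries, so replicate error cannot be measured and no test between stages was made. On chromosomes 1 to 19 the PriSG-A list held 54413 peaks and the SG-A list 85773. The pacSC list held 32902 and the rST list 6233. How deeply each stage was sequenced is unknown, and absence from a shorter list cannot be told apart from shallower sequencing. Positions are those of the files, whose assembly is not that of the gene table used for checking (GRCm38, or mm10). For this reason no gene or genomic feature is assigned to a region, and no sequence is shown. The labelled cell types were likewise not checked against marker genes.

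Since width was part of the rule, it is given as a description only. Median width was 1329 bp, with quartiles of 1141 and 1662 bp and a maximum of 6445 bp. Just above the threshold, 3 regions of 1000 bp lay at chr13:23493380-23494379, chr15:5099010-5100009 and chr3:51190368-51191367. Just below it, 3 spermatogonial-only regions of 999 bp lay at chr1:74849508-74850506, chr18:80911430-80912428 and chr4:118314816-118315814. The authors' signal value in the SG-A list, an area over the peak, was 714, 1234 and 2204 for the first set and 2235, 2707 and 792 for the second, so the sets overlapped. The 663 regions of 1000 to 1099 bp had a median signal value of 1534 in SG-A and 347 in PriSG-A. The 738 spermatogonial-only regions of 900 to 999 bp had 1306 and 251. Strength thus rose gradually across the width threshold in both lists.

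Within each spermatogonial list these regions stood high but not highest. Their median signal value exceeded that of 88.3% of SG-A peaks and 79.7% of PriSG-A peaks. Wide regions of both spermatogonial stages that also had a pacSC or rST peak, 8977 in number, stood higher, above 94.2% and 90.4% of the peaks. The 14905 narrower spermatogonial-only regions stood lower, above 66.0% and 49.7%. A −log10 q, the authors' adjusted significance of a peak, of at least 5 was reached in the SG-A list by 2952 of the 3624 regions, or 81.5%, against 18.2% of all autosomal SG-A peaks. In the PriSG-A list it was reached by 435 regions, or 12%, against 9.4% of all autosomal PriSG-A peaks. The rule favours strong peaks through their width, so nothing is read from these shares. Both lists reached that value in 421 regions, or 11.6% (95% Wilson interval 10.6 to 12.7), and in 47.9% (46.9 to 48.9) of the wide regions also listed later. Intervals here and below cover counting error only, and they treat neighbouring regions as independent.

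Most wide spermatogonial-only regions were a single broad peak in SG-A laid over 1 or several shorter PriSG-A peaks. In SG-A, 3322 regions (91.7%, 90.7 to 92.5) held 1 peak, and in 2532 (69.9%, 68.4 to 71.3) that peak spanned the whole region. In PriSG-A, 1 peak spanned the whole region in 150 (4.14%, 3.54 to 4.84). The width of the union region was therefore usually that of its SG-A peak. Peaks of SG-A covered a median of 1289 bp of the region, and those of PriSG-A a median of 824.5 bp, or 59.3% of its width. The SG-A list covered more bases than the PriSG-A list in 3270 regions (90.2%, 89.2 to 91.2), with a median difference of 554.5 bp over all regions. The width rule largely sets this share, since 90.1% of the regions held a peak of at least 1000 bp in SG-A and 25.8% held one in PriSG-A. The narrower spermatogonial-only regions, all under 1000 bp, had more SG-A coverage in 65.6% (64.8 to 66.3). Wide regions of both spermatogonial stages also listed later had much the same shape. They held 1 SG-A peak in 94.5%, which spanned the whole region in 69.0%, and SG-A covered more in 92.8%. The shape is thus not particular to the wide spermatogonial-only regions. Since depth is unknown, wider peaks in SG-A cannot be told apart from deeper libraries.

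**Figure D1:**
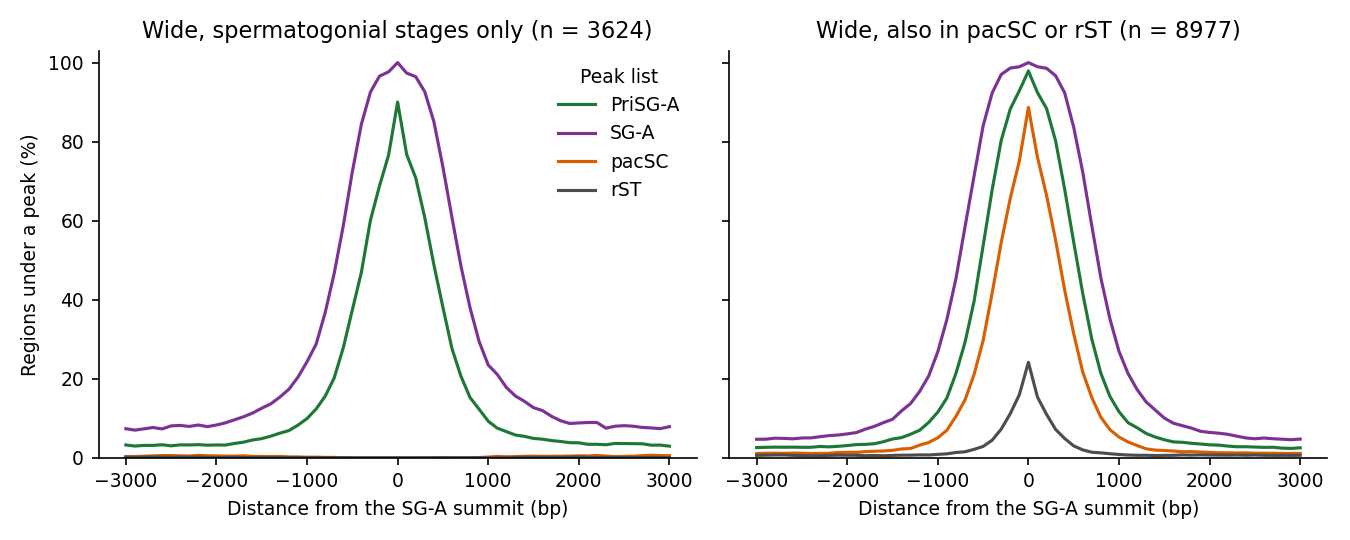
Percentage of regions lying under a peak of each list (y axis) by distance from the SG-A summit in bp (x axis, every 100 bp), for the 3624 wide spermatogonial-only regions (left) and the 8977 wide regions also listed in pacSC or rST (right). The SG-A curve is broader than the PriSG-A curve in both panels; at the SG-A summit 90.0% of the wide spermatogonial-only regions were under a PriSG-A peak, and the pacSC and rST curves are near 0 on the left by the rule.

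The PriSG-A signal was broken into pieces in many regions. One PriSG-A peak was present in 1961 regions, 2 in 1164, 3 in 370 and 4 or more in 129. Regions with more pieces were wider, with median widths of 1250, 1355, 1656 and 2324 bp in that order. Their median −log10 q in SG-A differed little, at 6.60, 6.54, 6.54 and 7.14. At least 2 PriSG-A peaks were present in 45.9% (44.3 to 47.5) of the wide spermatogonial-only regions and in 35.1% (34.1 to 36.1) of the wide regions also listed later. Strength also differs between these classes, so they were compared within classes of SG-A −log10 q. PriSG-A strength was not matched by this. The median PriSG-A −log10 q stayed lower in the wide spermatogonial-only regions in every class. It was 3.95 against 4.24 from 7 to 9, and 5.07 against 5.70 at 9 and above. From 7 to 9 the shares were 46.5% (43.6 to 49.5) and 37.9% (36.0 to 39.9), and at 9 and above 42.6% (38.0 to 47.3) and 30.9% (29.6 to 32.2). Below 5 the order was the other way, at 39.6% (36.0 to 43.3) and 45.7% (40.8 to 50.6), with overlapping intervals. From 5 to 7 the shares were 49.4% and 44.5%, and their intervals also overlapped (46.8 to 52.0 and 41.6 to 47.5).

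The point of highest signal, the summit, often lay close together at both spermatogonial stages, though not in every region. The summits of the leading PriSG-A and SG-A peaks lay a median of 92 bp apart, with quartiles of 24 and 272 bp. With a −log10 q of 5 or more required the median was 35 bp (every list) or 41 bp (spermatogonial lists alone). They were within 100 bp in 1860 regions (51.3%, 49.7 to 53.0) and within 500 bp in 3274 (90.3%, 89.3 to 91.3). The PriSG-A summit fell inside the leading SG-A peak in 3531 regions (97.4%, 96.9 to 97.9). In wide regions also listed later the median distance was shorter, at 52 bp. Within classes of SG-A −log10 q the medians lay closer together, at 223 and 206.5 bp below 5, 112 and 110 bp from 5 to 7, 70 and 65 bp from 7 to 9, and 37 and 36 bp at 9 and above. The shorter distance in the regions listed later thus moved with their higher −log10 q. The SG-A summit lay in the central part of the region, with a median position at 49.4% of its width and quartiles of 37.2% and 62.2%. In the narrower spermatogonial-only regions, whose width limits the distance, the summits of both lists lay a median of 51 bp apart.

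Regions that were strong in one spermatogonial list tended to be strong in the other, but the order was loose. Across the 3624 regions, ranks by signal value in the 2 lists had a Spearman correlation of 0.51, and ranks by −log10 q one of 0.56. The first was 0.32 over the 419 regions left when spermatogonial peaks needed a −log10 q of 5. Across the 8977 wide regions also listed later the values were 0.79 and 0.79. These correlations are across regions, which are not replicates, and the points share list, width and mappability. Of the 363 regions with the highest signal values in PriSG-A and the 363 with the highest in SG-A, 152 were the same, or 41.9% of each. Opposite placements were few. The 906 highest in PriSG-A and the 906 lowest in SG-A shared 94 regions, and the 906 highest in SG-A and the 906 lowest in PriSG-A shared 30.

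**Figure D2:**
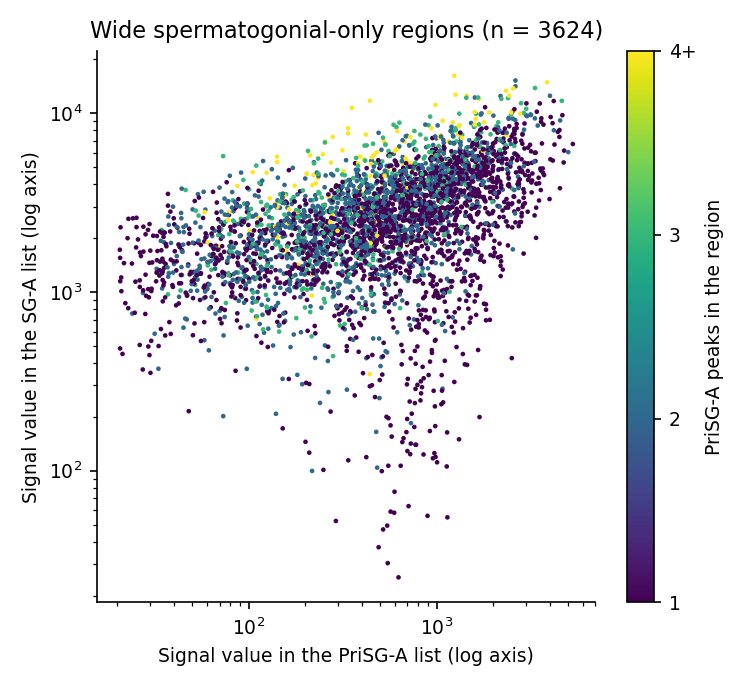
Signal value of each of the 3624 wide spermatogonial-only regions in the PriSG-A list (x axis, log) and in the SG-A list (y axis, log); each point is 1 region and the colour gives its number of PriSG-A peaks. Most points form a band that rises to the right, and regions with 4 or more PriSG-A peaks lie along its upper edge; a smaller set with 1 PriSG-A peak falls below the band.

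The 10 regions of highest signal value in SG-A were each 1 SG-A peak of 3235 to 6445 bp over 2 to 7 PriSG-A peaks. The first, at chr6:127099355-127105799, was also the widest, with a signal value of 16164 in SG-A. In PriSG-A it had 1243, rank 690 among the 3624 regions. That value is the area of the leading 1 of 6 PriSG-A peaks. Ranks by signal value use the leading peak alone, so a list in which a region is in pieces can rank it lower for that. A pair on chromosome 13 had ranks 2 and 4 in SG-A. These were chr13:21923060-21926622 (3563 bp, signal value 15220) and chr13:21901058-21904643 (3586 bp, 14128). In PriSG-A the pair had nearly equal signal values of 2628 and 2629 and the same −log10 q of 5.55, and their summits in the 2 lists were 217 and 216 bp apart. The third, chr14:51707818-51711628, kept a high place in PriSG-A, with signal values of 14862 in SG-A and 3874 in PriSG-A and rank 21 in the latter.

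The next 6 regions by SG-A signal value were spread over 5 chromosomes. The region chr7:19676994-19681843 was 4850 bp wide, with 13816 in SG-A and rank 43 in PriSG-A. The region chr16:85800905-85804139 had 13751, and its PriSG-A and SG-A summits lay 8 bp apart. The region chr8:28086166-28090282 had 13328 and was closest of the 10 to a later-stage peak, a pacSC peak 2005 bp away. On chromosome 10, chr10:66998052-67002013 had 12669 and rank 675 in PriSG-A, and chr10:80391075-80397118 had 12520 over 7 PriSG-A peaks. The region chr3:93247406-93251993 had 12525, with both summits on the same base. Ranks of these 10 in PriSG-A, by the leading of several peaks, ran from 21 to 690. A top place in SG-A thus did not fix the place in PriSG-A on this measure. Of the 5 widest regions, 3 were among these 10, and the other two were chr8:73131064-73136052 (4989 bp) and chr12:12945205-12949984 (4780 bp), with SG-A ranks of 13 and 17.

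In PriSG-A, leaving out those 10, the highest signal value was 5308 at chr1:90182287-90185357, where SG-A had 6718 and the summits lay 948 bp apart. The next were chr14:50680891-50682644 (5019), chr12:19392968-19395013 (4771), chr12:24780865-24782767 (4745) and chr6:41554205-41556644 (4671). Their SG-A ranks were 270, 250, 404 and 44. Both regions on chromosome 12 were wider in PriSG-A, where the peak took up the whole region of 2046 and 1903 bp, than in SG-A, with 1637 and 1541 bp.

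The regions with the largest rank difference in favour of SG-A had a broad SG-A peak over small PriSG-A pieces. This is partly built into the ranks, which use the area of the leading peak in each list. The largest was at chr11:100830196-100832329, with rank 310 in SG-A (signal value 5747) and 3341 in PriSG-A (73.2, 3 peaks). At chr7:19885509-19888494 the values were rank 382 and rank 3100, and PriSG-A peaks covered 477 of 2986 bp. The regions chr11:50415080-50417251, chr17:48110187-48113859 and chr4:43535916-43537742 had SG-A ranks of 322, 459 and 652 against 3023, 3154 and 3308. At the last of these the PriSG-A peaks covered 187 of 1827 bp.

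The opposite set had 1 PriSG-A peak over most or all of the region and SG-A peaks over less of it. The largest difference was at chr13:3137773-3139418, with rank 142 in PriSG-A (signal value 2514) and 3515 in SG-A (426), where 4 SG-A peaks were listed. At chr2:84024537-84025835 the PriSG-A peak covered all 1299 bp and 2 SG-A peaks covered 226 bp. The other three were chr3:3297280-3298548, chr17:39147529-39148658 and chr14:42712194-42714116, with PriSG-A ranks of 289, 400 and 316 against 3408, 3496 and 3411.

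These belong to a set of 353 regions (9.74%, 8.82 to 10.7) in which PriSG-A covered more bases than SG-A. The set was chosen for description after seeing the data. In position, which the rule had not used, it differed from the 3270 regions with more SG-A coverage. In the first 10 Mb of the listed span, the centromeric end of mouse chromosomes, lay 69 of the 353 regions (19.5%, 15.7 to 24.0) against 153 of 3270 (4.68%, 4.01 to 5.46). The same zone held 10.1% (9.60 to 10.6) of the narrower spermatogonial-only regions and 9.06% (8.48 to 9.67) of the wide regions also listed later. The 353 regions thus lay above both of these classes and the 3270 below both. Those classes were not split by the list that covered more, which was PriSG-A in 33.7% and 7.11% of their regions. Whether their regions with more PriSG-A coverage also lay more often in that zone was not tested. The next values are tied to the choice of the regions or of the set, and are a description only. A pacSC or rST peak was farther than 100 kb from 123 (34.8%, 30.1 to 40) against 386 (11.8%, 10.7 to 13.0). The SG-A signal was also more often in pieces, with 2 or more SG-A peaks in 45.3% against 4.31%. By chromosome, PriSG-A covered more in 24.8% (18.4 to 32.6) of the regions on chromosome 14 and 19.8% (13.9 to 27.5) on chromosome 12, against 2.46% (1.20 to 5.00) on chromosome 11 and 1.25% (0.221 to 6.75) on chromosome 19. The window with most of them, chromosome 12 from 19000001 to 20000000, held 6 among its 9 wide spermatogonial-only regions.

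Of the 12601 wide regions listed in both spermatogonial stages, 3624 had no pacSC or rST peak, which is 28.8% (28.0 to 29.6). This share depended on the choice of peaks, and was 59.2% with a −log10 q of 5 or more required in every list, 14.4% with a peak of at least 1000 bp required in each spermatogonial list, and 8.89% with that −log10 q required in the spermatogonial lists alone. Over both-stage regions of any width the share was 60.5%. A pacSC peak was present in 8914 of the 12601, and 63 had an rST peak without a pacSC peak, so absence from the later lists was almost wholly absence from pacSC. The share fell as SG-A −log10 q rose, from 65.4% (61.7 to 69.0) of regions between 4 and 5 to 38.4% (36.1 to 40.8) between 7 and 8 and 1.01% (0.551 to 1.85) at 12 and above. Below 4 the share was not higher still, at 62.1% (56.6 to 67.3) between 3 and 4 and 49.5% (39.6 to 59.4) of 95 regions below 3. By PriSG-A −log10 q it fell in every class, from 66.5% (62.7 to 70.1) below 2.5 to 3.28% (2.32 to 4.62) at 7 and above.

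The relation with width was not the same in every class of strength. Without regard to strength the share was 43.8% (42.2 to 45.5) for 1000 to 1250 bp and 20.2% (18.4 to 22.1) for 2000 to 3000 bp. Among regions with an SG-A −log10 q from 7 to 9 it was 29.7% (27.8 to 31.7) for widths of 1000 to 1500 bp, 30.7% (27.9 to 33.7) for 1500 to 2000 bp and 35.3% (31.3 to 39.4) for 2000 bp and more, with overlapping intervals. From 5 to 7 it was lower in the widest class, at 58.7% (56.3 to 61.0), 56.1% (51.9 to 60.3) and 43.3% (37.3 to 49.4). Below 5 it fell with width, at 66.8% (63.6 to 69.9), 50.3% (42.6 to 58.0) and 38.8% (26.4 to 52.8). At 9 and above it had no steady direction, at 8.42% (7.25 to 9.76), 6.26% (5.31 to 7.36) and 9.39% (7.97 to 11). The strongest wide spermatogonial-only regions, with an SG-A −log10 q of 10 or more, numbered 164.

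**Figure D3:**
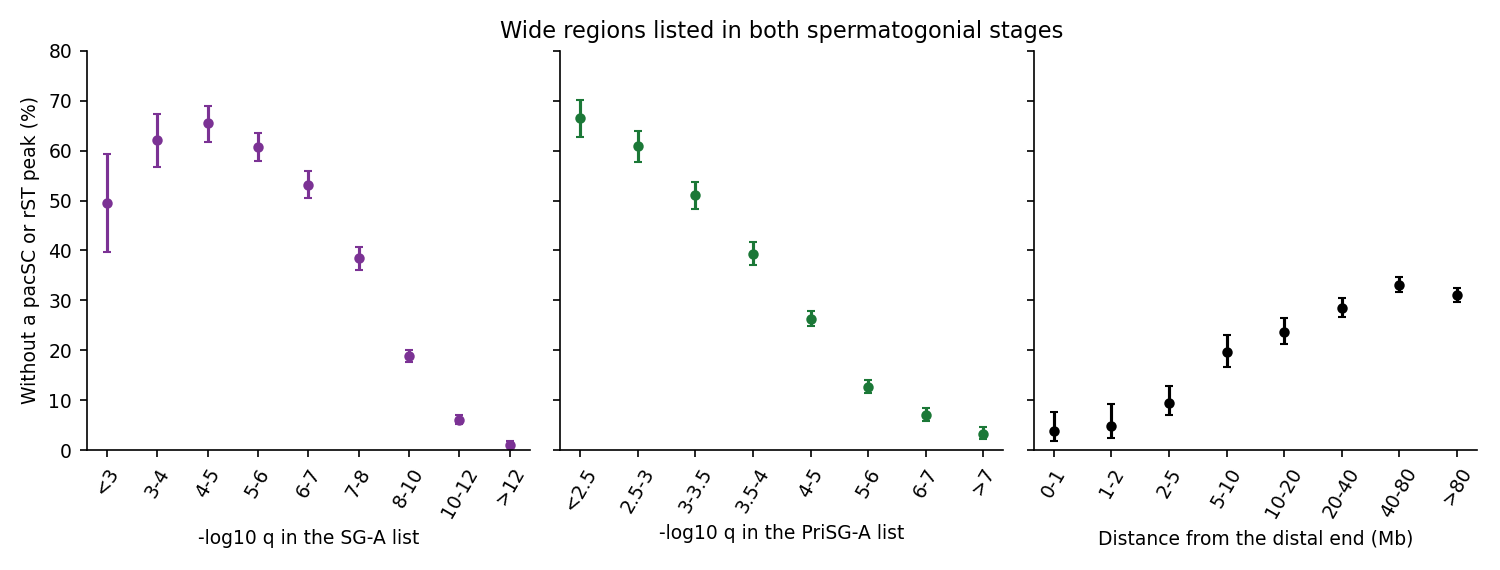
Percentage of the 12601 wide regions of both spermatogonial lists that had no pacSC or rST peak (y axis), by −log10 q class in the SG-A list (left), in the PriSG-A list (middle) and by distance from the distal chromosome end in Mb (right); bars are 95% Wilson intervals. The share falls to 1.01% and 3.28% in the strongest classes, and it is 3.85% in the last 1 Mb against 33.2% between 40 and 80 Mb from the end.

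Wide spermatogonial-only regions were scarce near the distal ends of chromosomes, the ends away from the centromere. The last 10 Mb of the listed span held 174 of them, or 4.80% (4.15 to 5.55), against 13.5% of all union regions, 7.41% (7.0 to 7.84) of the narrower spermatogonial-only regions and 13.3% (12.6 to 14.0) of the wide regions also listed later. The value was lower still, between 0.955% and 3.00%, under 5 stricter settings of the rule. The compared classes were not recomputed under those settings, so a larger difference from them is not shown. Seen the other way, 12.7% (11.1 to 14.6) of wide both-stage regions in that zone had no later peak, against 30.7% (29.9 to 31.6) elsewhere. The share was 3.85% (1.88 to 7.73) in the last 1 Mb and 19.6% (16.7 to 23.0) between 5 and 10 Mb. It reached 33.2% (31.7 to 34.6) between 40 and 80 Mb. At the other end, the first 10 Mb of the listed span held 6.13% (5.39 to 6.95) of the wide spermatogonial-only regions. That was below the narrower spermatogonial-only regions (10.1%) and the wide regions also listed later (9.06%). A lower share was thus not confined to the distal end.

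The distal difference held within the classes of SG-A −log10 q compared, which ran from 5 to 12. Regions below 5 or at 12 and above were not split by zone, and PriSG-A strength was not matched. With an SG-A −log10 q from 5 to 7 the share without a later peak was 31.8% (26.9 to 37.2) in the distal zone and 60.1% (58.1 to 62.2) elsewhere. From 7 to 9 it was 7.08% (4.88 to 10.2) and 33.5% (31.9 to 35.2), and from 9 to 12 it was 1.78% (0.906 to 3.48) and 10.2% (9.26 to 11.1). It was lower distally on 18 of 19 autosomes. The exception was chromosome 8, with 30.0% of 110 distal regions against 28.4% of 626 elsewhere. There, 1 window, from 126000001 to 127000000, held 20 of the 33 distal regions without a later peak, and leaving it out, an alternative added after seeing the data, gave 13 of 79, or 16.5% (9.88 to 26.1). The pacSC list itself was dense in that zone, with 25.4% of its autosomal peaks there against 10.7% of SG-A peaks and 8.92% of PriSG-A peaks. Absence from pacSC is part of the rule, so the distal scarcity of these regions and the distal density of pacSC peaks are linked and are not separate results.

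Among chromosomes, the density ran from 0.840 regions per Mb on chromosome 16 and 0.857 on chromosome 15 to 2.28 on chromosome 17 and 2.39 on chromosome 11, with 1.5 over all autosomes. Wide both-stage regions in general also varied in density, with 4.26 per Mb on chromosome 16 and 7.36 on chromosome 11. The share of those without a later peak ran from 18.2% (15.0 to 21.9) on chromosome 15, 19.7% (16.1 to 23.8) on 16 and 19.8% (16.2 to 23.9) on 19 to 34.1% (31.2 to 37.1) on 7 and 34.2% (30.7 to 37.9) on 3. The lowest 3 and the highest 2 had intervals that did not overlap. Outside the distal 10 Mb the range was 20.3% to 36.5%. Chromosome 19 was dense in wide both-stage regions, at 6.95 per Mb, while its 1.37 wide spermatogonial-only regions per Mb were the median of the autosomes.

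**Figure D4:**
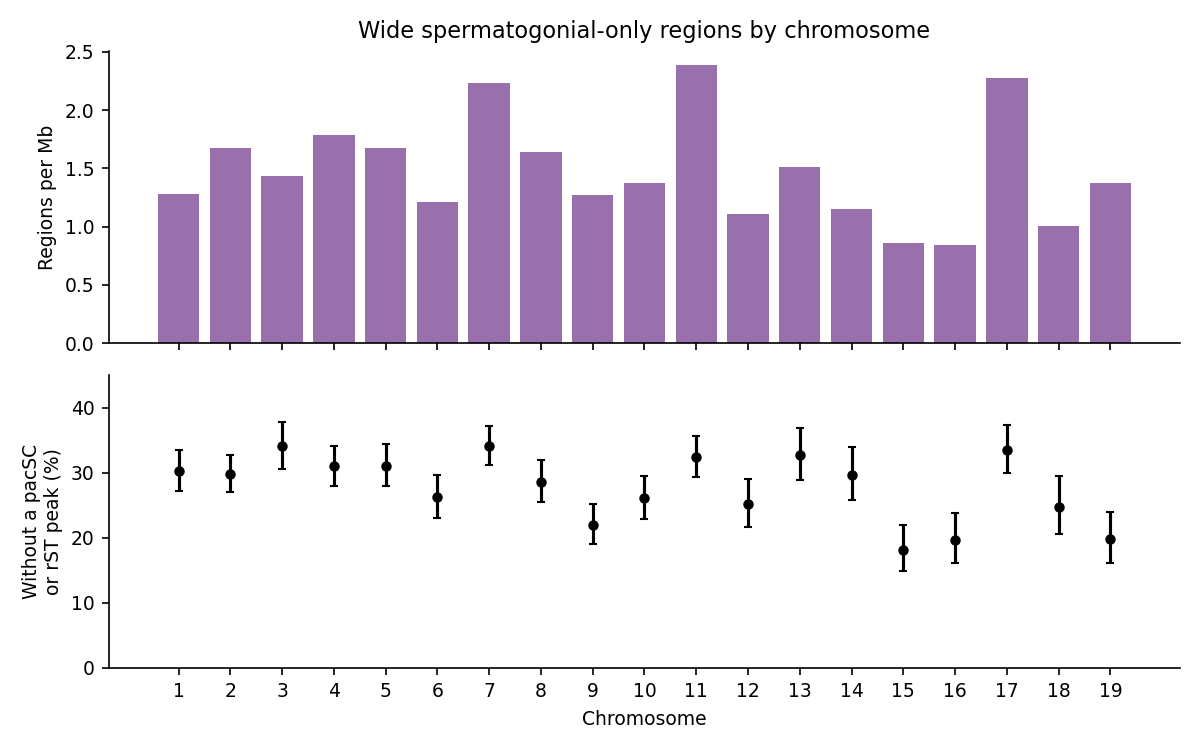
Number of wide spermatogonial-only regions per Mb of listed span (top) and percentage of wide both-stage regions without a pacSC or rST peak (bottom, bars are 95% Wilson intervals) for each autosome (x axis). Chromosomes 7, 11 and 17 have the highest densities, and chromosomes 15, 16 and 19 the lowest shares, at 18.2%, 19.7% and 19.8%.

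The regions were often neighbours. Another of them lay within 50 kb of 1461 (40.3%, 38.7 to 41.9) and within 10 kb of 596 (16.4%, 15.3 to 17.7). For wide regions also listed later, which are more numerous, the shares were 50.8% (49.7 to 51.8) and 13.8% (13.1 to 14.6). For the narrower spermatogonial-only regions, the most numerous of the 3 classes, they were 64.2% (63.4 to 65.0) and 35.4% (34.6 to 36.1). The classes differ in number, so close grouping is not shown to be particular to the wide spermatogonial-only regions. Their share within 50 kb fell to between 12.6% and 23.7% under the 4 settings that left the fewest regions. In windows of 1 Mb, 1333 held at least 1 wide spermatogonial-only region, with a median of 2, and 41 windows held 10 or more. Those 41 had 591 of the regions, or 16.3%.

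The fullest window, chromosome 10 from 79000001 to 80000000, held 27 among its 47 wide both-stage regions. The window on chromosome 7 from 52000001 to 53000000 held 26 of 41. Chromosome 11 from 69000001 to 70000000 had 24 of 31, and chromosome 13 from 23000001 to 24000000 had 23 of 29. Chromosome 3 from 89000001 to 90000000 also had 23 of 29. In the order given, the windows held 242, 195, 118, 130 and 114 SG-A peaks, and 31, 22, 9, 16 and 13 pacSC peaks. Over all autosomes the SG-A list held 85773 peaks and the pacSC list 32902. The windows were picked for regions that lack a pacSC peak by the rule, so low pacSC counts are tied to that choice.

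Windows differed widely in whether their spermatogonial regions were listed later. Of the 380 windows with 10 or more wide both-stage regions, the share without a later peak had a median of 30.0% and quartiles of 16.7% and 42.1%. In 29 of these windows it was 0. At the other end, chromosome 4 from 122000001 to 123000000 had 9 of 10 without a later peak (73 SG-A peaks, 2 pacSC peaks), and chromosome 1 from 137000001 to 138000000 had 10 of 12 (100 SG-A peaks, 7 pacSC peaks). Chromosome 10 from 128000001 to 129000000, within the distal zone, had 0 of 18, with 81 SG-A peaks and 88 pacSC peaks. These windows were picked by that share, so their pacSC counts are tied to the choice and are a description only.

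Reading along the chromosomes through wide both-stage regions only, 1417 wide spermatogonial-only regions (39.1%) stood alone between regions that were listed later. Unbroken runs of 5 or more numbered 73 and held 475 regions. The longest run was 17 regions over 3104 kb, at chr12:21833938-24937993. A second run on chromosome 12, of 11 regions over 1344 kb, lay at chr12:18859229-20203557. Among the long runs, 2 were compact, with 12 regions in 33.7 kb at chr4:88418929-88452599 and 12 in 57.2 kb at chr8:126062183-126119379. A run of 12 at chr3:89030868-89199367 took 168.5 kb, and 1 of 11 at chr3:96066191-96381519 took 315 kb.

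The run of 12 on chromosome 4 was also the largest group at gaps of up to 10 kb, and its regions were alike and evenly spaced. Their starts were 2790 to 3136 bp apart, with a median of 2928 bp, and they were 1198 to 1462 bp wide. Signal values ran from 3643 to 4296 in SG-A, a ratio of 1.18 between highest and lowest, and from 595 to 1177 in PriSG-A. The −log10 q ran from 8.15 to 8.99 in SG-A and from 3.63 to 4.59 in PriSG-A. Before the group, 2 more wide spermatogonial-only regions stood at chr4:88402884-88404230 and chr4:88405891-88407109, with SG-A signal values of 4739 and 4157.

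**Figure D5:**
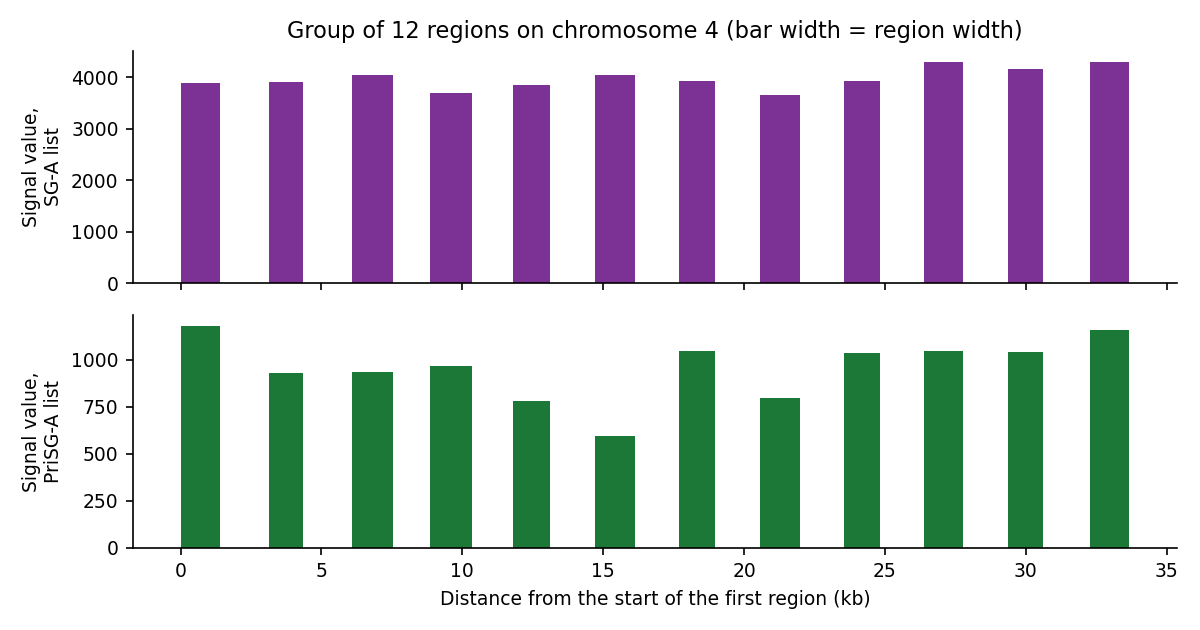
Signal value (y axis) in the SG-A list (top) and the PriSG-A list (bottom) of the 12 regions of the chromosome 4 group by distance in kb from the start of the first (x axis); the width of each bar is the width of the region. The bars stand 2790 to 3136 bp apart and run from 3643 to 4296 in SG-A.

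Other close groups were less regular. A group of 8 regions in 52.6 kb at chr13:23625449-23678053 had SG-A signal values from 1971 to 7799. A group of 8 in 31.0 kb at chr1:90175764-90206783 ran from 264 to 6718. On chromosome 8, 2 groups of 7 lay at chr8:126062183-126085522 and chr8:126130008-126148145, with values from 1774 to 3212 and from 1516 to 2999. Both lay in the window of chromosome 8 from 126000001 to 127000000, which held 20 among its 31 wide both-stage regions.

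Few wide spermatogonial-only regions bordered a later-stage peak. A pacSC or rST peak lay within 1000 bp of 83 (2.29%, 1.85 to 2.83), against 6.72% (6.33 to 7.13) of the narrower spermatogonial-only regions. Over all union regions of a spermatogonial list, 7.37% had such a peak within 1000 bp without overlapping one. That base also holds regions that overlap a later peak, so its share is not on a like footing. The median gap was 30099.5 bp, against 30775 bp for the narrower ones, so the difference lay at short distances. The rule removes regions that overlap a later peak, and a wider region has more length with which to overlap one. Shares at short distances are thus tied to the rule and are a description only. Within 10 kb the shares were 20.9% (19.6 to 22.2) and 24.5% (23.8 to 25.2). The smallest gap was 61 bp, from chr15:38128314-38129785 to a pacSC peak. The next were 101 bp at chr14:109309987-109311258, 131 bp at chr1:9458768-9460035, 132 bp at chr1:85097008-85098431 and 137 bp at chr4:3016836-3017880. In the region at 132 bp the neighbour was an rST peak, and the nearest pacSC peak was 1160 bp away.

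The regions farthest from any later peak were weak in SG-A. At chr8:22086343-22088425 the nearest later peak was 1081904 bp away, and the SG-A signal value was 884 (rank 3302). At chr12:24111395-24112609 and chr5:95158158-95159558 the gaps were 1028179 and 1005566 bp, with SG-A ranks of 3535 and 3597. At chr17:39147529-39148658 and chr5:95608368-95609469 they were 831228 and 822249 bp, with ranks of 3496 and 3619. All 5 had 1 or 2 peaks in each list, and their PriSG-A ranks, from 400 to 2874, were nearer the top than their SG-A ranks.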

How the data were processed

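The series holds 30 samples, of which the 10 ATAC-seq libraries entered here through 4 deposited narrowPeak lists, 1 per stage; the other 20 were not analysed here. Per the labels, all libraries of a stage share 1 list. The PriSG-A list has a garbled name and was assigned as the one left over. The authors' deposited score equals 1000 times the deposited signal value over peak width, capped at 1000, for 100% of peaks in each list (tolerance 1). The deposited −log10 q and summit are the peak caller's own. Bowtie2 2.2.5, Bowtie, SAMtools and mm10 are named in the submitters' processing notes. The peak caller and its settings, how replicates were joined, depth and any Tn5 shift are among items not given in the sources used here. Peaks lay beyond every gene of a GRCm38 (mm10) RefSeq table on 10 of 19 autosomes, by up to 7.2 Mb. The positions thus conflict with the mm10 of the processing notes and should not be read as mm10. Their assembly was not established. For this reason that table, its promoter sequences and the planned gene starts and gene lists were not used.

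Lists were joined in Python 3.11.15 (pandas 2.3.3, scipy 1.17.1), checked against bedtools 2.31.1 and tested on simulated lists. A region takes the signal value, −log10 q and summit of its peak of highest signal value in each list; classes by −log10 q use the highest in the list. Distances to chromosome ends start at the first and last peak of any list. Signal values and −log10 q were never compared in size between lists, while the bases covered by peaks were. Of the wide regions also listed later, 157 (1.75%) were under 1000 bp on spermatogonial peaks alone; without them the share with no later peak was 29.1%. Named regions follow 1 rule: 10 highest in SG-A, 5 more in PriSG-A, 5 widest, 5 of largest rank difference each way, 3 either side of 1000 bp, 5 nearest to and 5 farthest from a later peak, and the 5 fullest windows. Runs, groups and other windows were chosen after their values were seen. The regions, rule and lists were chosen with earlier results of these data known. Alternatives are given with their effect in the closing section.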

Additional observations from a re-analysis of the deposited data

How the results depend on the processing

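Of 71 alternative values for 7 results, 23 stayed within the main 95% interval (within 1.5 times for the count) and 48 moved. The cause was not tested beyond the change in which regions enter. Requiring no later peak within 1000 bp moved none of the 7. In what follows, the absent share is that of wide both-stage regions without a later peak, the distal share is that of the last 10 Mb, the neighbour share is that with another within 50 kb, and the SG-A-wider share is that in which SG-A covers more. With a minimum width of 800 bp the absent share was 34.3%, the neighbour share 47.5% and the SG-A-wider share 87.9%. With 1500 bp the count was 1260, the absent share 20.8%, the distal share 2.94%, the neighbour share 23.7%, the SG-A-wider share 92.9% and the summit distance 111 bp. With a peak of at least 1000 bp in each list the values were 762 regions, 14.4%, 1.57%, 15.1% and 83.1%, and the rank correlation was 0.40. Keeping only peaks whose −log10 q reached 5 in all lists, the absent share was 59.2%, the distal share 2.83%, the neighbour share 30.4%, the SG-A-wider share 88.5%, the summit distance 35 bp and the correlation 0.55. With it in the spermatogonial lists only, the values were 419 regions, 8.89%, 0.955%, 12.6%, 81.4%, 41 bp and 0.32. With a reciprocal overlap of 50% they were 1666 regions, 19.6%, 3.00%, 21.5%, 84.6%, 78 bp and 0.57. With merging up to 500 bp apart the count was 5518, the absent share 36.2%, the neighbour share 45.6%, the SG-A-wider share 86.0%, the summit distance 117 bp and the correlation 0.60. With lists of the pacSC length the absent share was 27.1%, the neighbour share 38.5% and the summit distance 85 bp. A distal zone of 20 Mb held 11.5%. The neighbour share was 16.4% at 10 kb and 69.5% at 200 kb, and 31.8% without windows of 10 or more, a setting added after the data were seen. The share near gene starts was not run. No paired analysis was possible because the libraries of a stage were joined in 1 list, nor could a single replicate be left out. Unknown depth limits every statement of absence.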

Other observations

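On the X chromosome, outside the autosomal rule, 178 of 415 wide regions of both spermatogonial stages had no pacSC or rST peak, or 42.9% (95% Wilson interval 38.2 to 47.7), against 28.8% on autosomes. The autosomal share moved strongly with −log10 q, and the X chromosome was not compared with autosomes within classes of −log10 q.

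Pairs of wide spermatogonial-only regions that were alike within 1% in width and in signal value in both lists numbered 1 of 4526 pairs within 200 kb, 1 of 394700 farther apart on a chromosome and 14 of 6165650 on different chromosomes. The near pair was chr3:96253583-96256556 and chr3:96261926-96264898, 2974 and 2973 bp wide, with signal values of 4576 and 4573 in SG-A and 204 in PriSG-A for both. The −log10 q of the 2 regions was also equal, at 6.64 in SG-A and 3.01 in PriSG-A.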
